A study of Mus musculus with 2 samples.

Results

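The genes described are the receptors of the interleukin-1 family and their regulators, namely Il1r1, Il1r2, Il1rl1, Il1rl2, Il18r1, Il18rap, Il1rap and Il1rn. They were chosen by gene name. Of these 8 genes, 5 were among the 4934 genes that the authors' table lists near a STAT5 region. The share of all annotated genes that are listed was not worked out, so this count has no background beside it. The 5 listed genes carried 9 distinct regions, of 5703 in all, and every region lay within about 225 kb of chromosome 1 (224.7 kb from the first to the last). Il1r2, Il1rap and Il1rn were not in the table and so had no assigned region.

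Cytokines of the interleukin-1 family signal through pairs of related receptor chains. A ligand-binding chain (Il1r1 for IL-1, Il18r1 for IL-18, Il1rl1, also called ST2, for IL-33 and Il1rl2 for IL-36) recruits an accessory chain, which is Il18rap for IL-18 and Il1rap for the others. The paired intracellular domains bind the adaptor MYD88 and activate IRAK kinases, TRAF6 and NF-kappaB. Il1r2 is a decoy that binds IL-1 without signalling, and Il1rn encodes an antagonist of Il1r1. In effector CD8 T cells IL-18 is known for eliciting interferon gamma together with IL-12, and IL-33 for sustaining antiviral responses. STAT5 is the transcription factor that the IL-2 receptor activates.

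Binding was mapped by ChIP-seq, which sequences the DNA that an antibody, here to STAT5, pulls down from chromatin. The IL-2 group was 1 library from cells kept for 1 hour in vitro with IL-2 at 0.5 µg/ml. The control group was 1 library from cells whose treatment is labelled as none. That label does not say whether the control cells were also kept in vitro for 1 hour. In both groups the cells were CD8 T cells of the OT-I transgenic line on C57BL/6, whose T cell receptor recognises the ovalbumin peptide SIINFEKL. They had been transferred into mice, primed there with this peptide plus agonists of CD134 and CD137, and sorted from spleens 4 days later, so the control cells were activated effector cells as well. The labels do not say how many mice were pooled, and with 1 library per group no difference has a replicate check or a test.

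Heights are peak signals in the authors' own units, and neither the depth nor the scaling between libraries is given in the sources used here. Over all listed genes the median of the mean height was 20.75 in the IL-2 library (interquartile range 15 to 33) and 5 in the control library (4 to 5.8). A ratio here has 5 added to each height, IL-2 over control, and is given as log2. All listed genes had a region called in the IL-2 library, which selects for high IL-2 values, and 12 had a region called in the control library, none of them a receptor gene of this family. Binding does not measure expression, so the cell type cannot be checked from its markers. All 6 CD8 T cell markers (Cd8a, Cd8b1, Cd3d, Cd3e, Cd3g and Trac) had a region. So did 1 of 5 B cell, 1 of 5 myeloid and 1 of 5 mast and innate lymphoid markers. These counts describe regions only, and no share over all annotated genes is given beside them.

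All 5 listed receptor genes were higher in the IL-2 library, a direction that the selection on IL-2 regions favours. Their mean heights per gene fell in 2 tiers by chromosomal position. Il1rl1, Il18r1 and Il18rap, which lie next to each other, had mean heights of 46.8 to 105 in the IL-2 library and 5 to 5.75 in the control library. Il1r1 and Il1rl2 had 21 and 23 in the IL-2 library and 3.33 and 3.5 in the control library. The ratio was at least 2 for 5 of the 5 genes, where 83.8% of all listed genes had such a ratio, so this count is close to what the table shows for any gene. A ratio of at least 4 was reached by Il1rl1, Il18r1 and Il18rap, where 23.1% of all listed genes reached it. The median log2 ratio of the 5 genes was 2.34, beside 1.42 over all listed genes. The genes are not independent, since 6 of the 9 regions were each assigned to a pair of them.

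**Figure D1:**
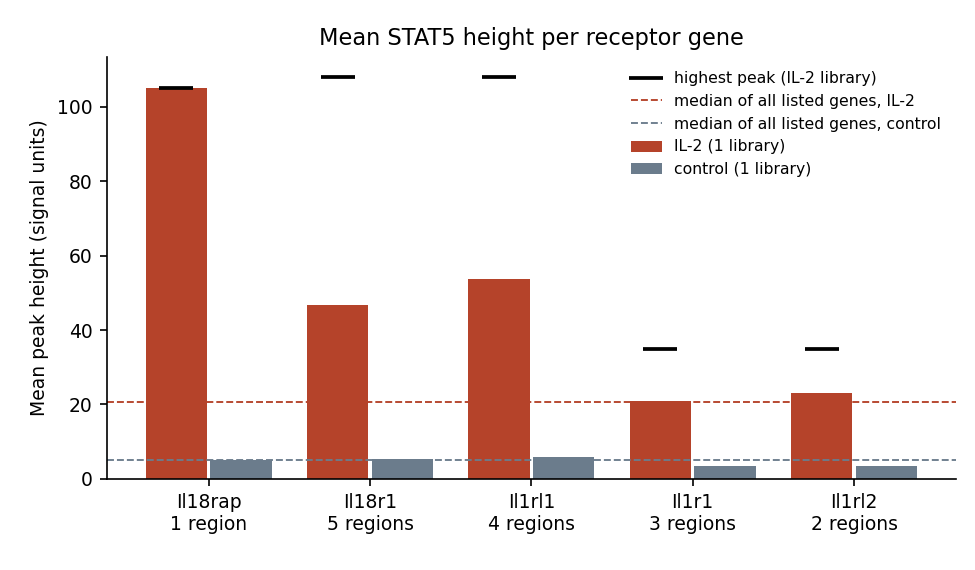
Mean STAT5 peak height (signal units) of the 5 listed receptor genes in the IL-2 library (red bars) and the control library (grey bars), 1 library each, with black dashes for the highest peak in the IL-2 library and dashed lines for the medians of all listed genes. The IL-2 bars run from 21 for Il1r1 to 105 for Il18rap, and the control bars stay between 3.33 and 5.75.

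Il18rap, the accessory chain of the IL-18 receptor, had the highest mean height of the family and the highest ratio of mean heights. It had 1 region, with a height of 105 in the IL-2 library and 5 in the control library (log2 ratio 3.46). Its position was 40515360 on chromosome 1 (mm10), 2 bases before the start of the gene at 40515362. By log2 ratio the gene ranked 34th and by IL-2 height 41st of the 4934 listed genes. These ranks use the mean per gene, which lower regions reduce in genes with several regions. By highest peak, 95.6% of listed genes were below Il18rap, and 96% were below Il1rl1 and Il18r1. Regions of this height were uncommon among those whose single height could be worked out, near gene starts and elsewhere. Most of the 5703 regions had no determined height and are not in these counts. Among 1082 regions within 1 kb of a start whose single height could be worked out, the median IL-2 height was 16, and 11 were as high as the Il18rap region or higher, that region included. Among all 2482 regions with a determined height, at any distance, 39 were.

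The bases upstream of Il18rap are shown because this region sits at the gene start. They are the RefSeq plus strand of chr1:40515112-40515361 (GRCm38.p6, the mm10 build), ending at the base before the start, 5′ to 3′. Capitals mark the wide-spaced STAT motif (TTC, any 4 bases, GAA), a form that STAT6 favours, and TTCNNNTAA or its reverse complement TTANNNGAA. The last is a variant of the STAT5 motif TTCNNNGAA that was searched after the sequence was seen.
Il18rap: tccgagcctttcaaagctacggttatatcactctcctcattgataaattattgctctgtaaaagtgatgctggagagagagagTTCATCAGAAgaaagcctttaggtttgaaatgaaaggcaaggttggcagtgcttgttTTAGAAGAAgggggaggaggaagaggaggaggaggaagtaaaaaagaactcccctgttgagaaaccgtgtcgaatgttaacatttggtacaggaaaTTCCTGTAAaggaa

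The palindromic motif TTCNNNGAA, which reads the same on both strands, was not in the Il18rap window from 250 bases before to 50 after the start. The wide-spaced motif, also its own reverse complement, occurred there a single time, as TTCATCAGAA. The variant had 3 matches in this window. The closest, TTCCTGTAA, lay at 40515348 to 40515356, its centre 8 bases from the region position. TTCAACTAA at 40515379 to 40515387, past the printed bases, was 23 bases from it, and TTAGAAGAA was 104 bases from it. Positions in the table fall on a grid of 16 bases for 95.5% of regions, so the distance of 8 bases is within the resolution. Of all 32851 RefSeq promoter windows, 8.3% held TTCNNNGAA, 6.95% held the wide-spaced motif and 10.4% held TTCNNNTAA on either strand. Of the 437 windows that contained the position of a STAT5 region, 46.2% held TTCNNNGAA, 8.47% the wide-spaced motif and 9.15% TTCNNNTAA. A match is a description of letters and not a site.

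Il18r1, the ligand-binding chain for IL-18, had the most regions of the family, 5 within 14.1 kb of its own body. Only 8.29% of listed genes had 4 or more regions. Their mean height was 46.8 in the IL-2 library and 5.2 in the control library (log2 ratio 2.34). They lay 176, 4528, 6725, 10288 and 14256 bases after the gene start, at positions 40465728, 40470080, 40472277, 40475840 and 40479808. The table gives means per gene, and comparing the sums of Il18r1 and Il1rl1 leaves the region at 40479808 with 19 in the IL-2 library and 3 in the control library (log2 ratio 1.58). The other 4 summed to 215 in the IL-2 library and 23 in the control library. The highest peak of Il18r1 was 108 and belonged to 1 of these 4, which leaves 107 for the other 3, a mean of 35.7. Which of the 4 held the peak is not determined by the table. The highest peak was thus close to the Il18rap height of 105, so the lower mean of Il18r1 comes with several lower regions in the average.

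The start of Il18r1 is shown because its first region lies between annotated promoter windows. RefSeq gives windows for gene starts at 40465552, 40465621 and 40466006, and the region at 40465728 falls 58 bases after the middle window and 28 bases before the last. Printed are the 250 bases before the starts at 40465552 and 40466006, chr1:40465302-40465551 and chr1:40465756-40466005, plus strand, 5′ to 3′ (RefSeq, GRCm38.p6). Capitals mark the wide-spaced motif in the first and TTCNNNGAA in the other.
Il18r1, start at 40465552: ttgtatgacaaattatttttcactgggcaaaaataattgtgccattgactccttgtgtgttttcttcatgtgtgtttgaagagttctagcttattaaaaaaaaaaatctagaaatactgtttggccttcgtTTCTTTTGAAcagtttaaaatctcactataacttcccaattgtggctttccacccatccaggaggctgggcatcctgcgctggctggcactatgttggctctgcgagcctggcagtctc
Il18r1, start at 40466006: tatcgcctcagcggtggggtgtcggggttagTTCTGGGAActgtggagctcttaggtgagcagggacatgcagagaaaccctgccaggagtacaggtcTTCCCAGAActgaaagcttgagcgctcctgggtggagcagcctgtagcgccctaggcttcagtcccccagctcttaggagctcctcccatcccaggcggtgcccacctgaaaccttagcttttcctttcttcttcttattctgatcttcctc

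The window of the start at 40466006 held TTCNNNGAA at 2 places, TTCTGGGAA at 40465787 to 40465795 and TTCCCAGAA at 40465854 to 40465862. Their centres lay 63 and 130 bases from the region position. The windows of the other starts held none, and shared a wide-spaced match, TTCTTTTGAA, 291 bases from the region. The sequence under the remaining regions of the family was not analysed here.

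Il1rl1, the IL-33 receptor, carried 4 regions, whose mean height was 53.75 in the IL-2 library and 5.75 in the control library (log2 ratio 2.45). All 4 are the first 4 regions of Il18r1. The genes lie head to tail, with 137 bases from the end of Il1rl1 at 40465415 to the start of Il18r1 at 40465552. The first shared region was 313 bases past the Il1rl1 end, and the regions lay 26079 to 36191 bases after the Il1rl1 start. No region in the table lay within the Il1rl1 body, and none upstream of its start was assigned to it. The Il1rl1 values are therefore those of the Il18r1 start and body under a second name, and the table does not tell to which gene they belong.

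**Figure D2:**
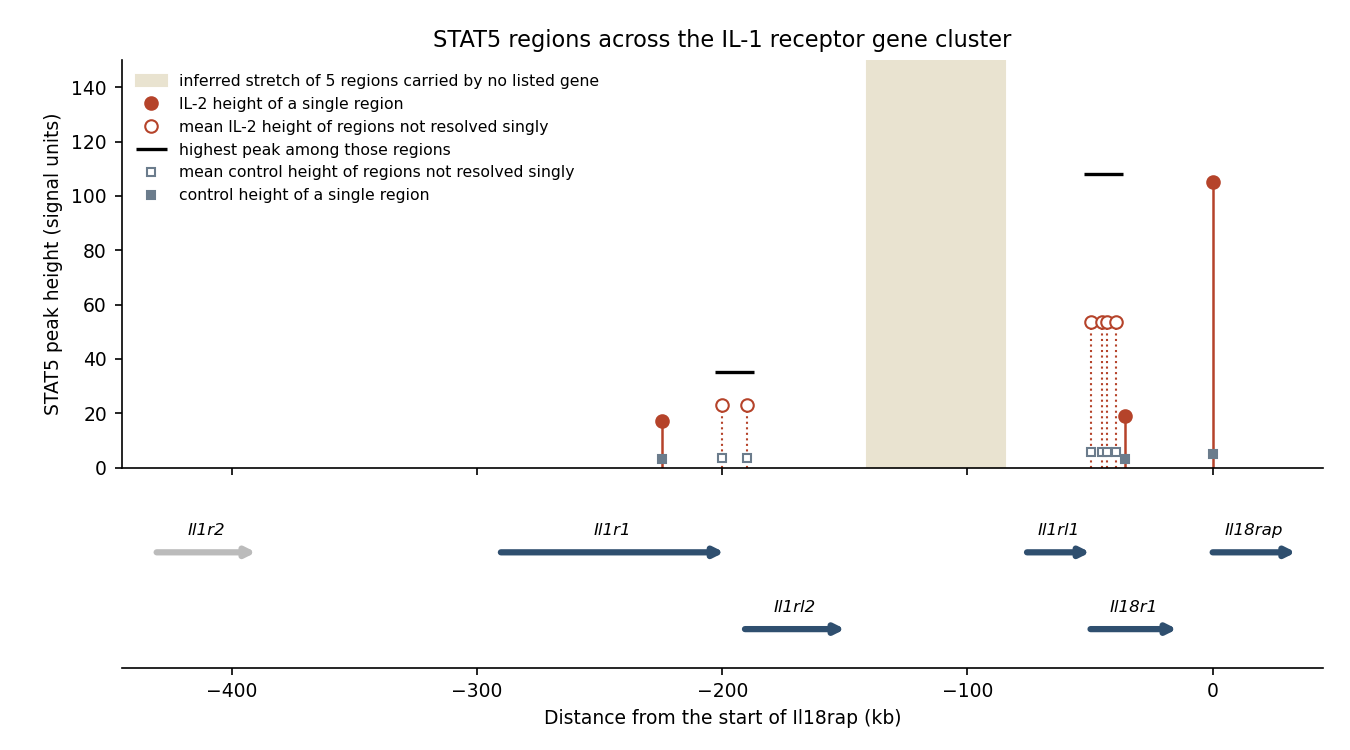
STAT5 peak height (signal units) against distance from the Il18rap start (kb), with gene bodies below (Il1r2, which is not listed, in light grey). Filled symbols are regions whose single height is determined, open symbols are group means, black lines are the highest peak of a group, and the shaded stretch is where 5 regions carried by no listed gene are inferred to lie. The Il18rap region reaches 105 and the group at the Il18r1 start has a highest peak of 108, while regions at Il1r1 and Il1rl2 stay at or below 35.

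A further 5 regions were called in this cluster but carried by no listed gene. Region numbers of the IL-2 library followed position on 21 of 21 chromosomes, and the receptor regions are numbers 52 to 54 and 60 to 65. Numbers 55 to 59 must therefore lie between 40325344 and 40465728. A region is in the table only through a gene, so the reach of assignment was read from regions that were also on another gene. Of their pairings with a gene within 9 kb, all were assigned (1324 of 1324 inside the gene, 1710 of 1710 up to 5 kb outside and 882 of 882 from 5 to 9 kb outside), against 186 of 328 from 10 to 12 kb outside. Regions on no gene cannot enter this count, nor can genes outside the table, and every listed gene is there through an assigned region. If the same reach applies to the 5 regions, they lie in the 56.2 kb from 40374471 to 40430649. By the gene ends in the authors' table this stretch is between Il1rl2 and Il1rl1. The only RefSeq gene that overlaps it is Il1rl1 itself, whose RefSeq annotation begins at 40404864, 34.8 kb before the start used in the authors' table. By RefSeq, part of the stretch is therefore inside Il1rl1, and an Il1rl1 start at 40429570 also falls in it. Heights and exact positions of these 5 regions are not analysed here.

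With them, the cluster held 14 consecutive region numbers within 224.7 kb. Over all 4333 runs of 14 numbers on 1 chromosome that began and ended at a listed region, the median span was 3022.8 kb, and 81 runs (1.87%) were as short or shorter. The length and ends of the run were taken from this cluster, and the runs overlap. The percentage is therefore a description and not a chance level. To the next called region on either side, numbers 51 and 52 were 333.9 kb apart and numbers 65 and 66 were 164.9 kb apart. The flanking listed genes had lower mean IL-2 heights than any of the 5 receptor genes. The mean was 19.33 for Map4k4, a kinase gene (5 in the control library). It was 10 for Slc9a2, a sodium-proton exchanger gene (3 in the control library). Map4k4 was close to Il1r1, whose mean was 21. The highest peak was 32 for Map4k4 and 35 for Il1r1 and Il1rl2.

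The IL-1 and IL-36 receptor genes, in the other part of the cluster, had weaker regions far from the start of Il1r1. Il1r1 carried 3 regions, whose mean height was 21 in the IL-2 library and 3.33 in the control library (log2 ratio 1.64). Il1rl2 had 2 regions with a mean of 23 in the IL-2 library and 3.5 in the control library (log2 ratio 1.72). Both Il1rl2 regions were also assigned to Il1r1. The region of Il1r1 alone, at 40290640 and 65560 bases into the gene, had 17 in the IL-2 library and 3 in the control library (log2 ratio 1.46). The shared regions, at 40315424 near the 3′ end of Il1r1 and at 40325344, 717 bases into Il1rl2, summed to 46 in the IL-2 library and 7 in the control library. Since the highest peak was 35, the higher had 35 and the other 11 in the IL-2 library, but the table does not show which. The IL-2 means of these genes were near the middle of the table, as 50.1% of listed genes had a lower mean than Il1r1 and 56.2% a lower mean than Il1rl2. For Il1rl1, Il18r1 and Il18rap these shares were 91.2%, 88.1% and 99.1%.

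**Figure D3:**
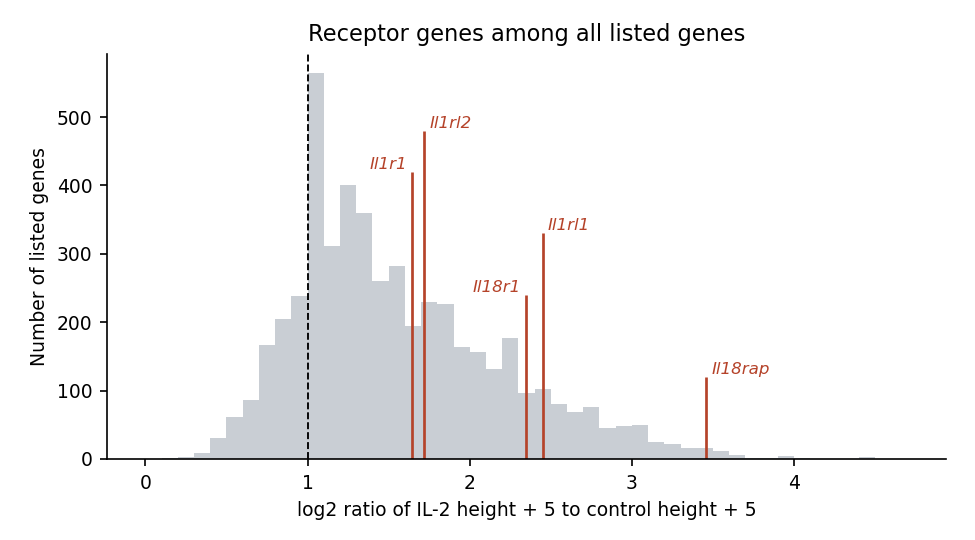
Histogram of the log2 ratio of IL-2 to control height (pseudocount of 5 on each) over the 4934 listed genes, with the 5 receptor genes as red lines (the line heights have no meaning) and a dashed line at a ratio of 2. Il18rap lies in the upper tail at 3.46, Il1rl1 and Il18r1 at 2.45 and 2.34, and Il1rl2 and Il1r1 at 1.72 and 1.64.

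Of the 9 regions, 3 lay within 1 kb of a member's start, those at Il18rap, Il18r1 and Il1rl2, and over all distinct regions 27.5% lay within 1 kb of a listed start. The 3 regions with a determined single height had log2 ratios of 1.46, 1.58 and 3.46. Each exceeded a ratio of 2, as did 80.4% of the 2482 regions with a determined height.

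The size of these differences depends on how the libraries are scaled. Scaling both libraries to the same median over listed genes shifted the median log2 ratio of all genes by -1.28. After it, all 5 receptor genes remained higher in the IL-2 library, as did 58.7% of all listed genes. Their log2 ratios were then 1.97 for Il18rap, 0.95 for Il1rl1, 0.89 for Il18r1, 0.46 for Il1rl2 and 0.41 for Il1r1. Only Il18rap kept a ratio of at least 2, as 11.9% of all listed genes did. The order of the 5 genes was the same under both scalings, but a constant factor per library leaves little room to reorder them. Without scaling, the order changed when the IL-2 mean of each gene was replaced by its tallest region. Il18r1 (log2 ratio 3.47) then came just above Il18rap (3.46) and Il1rl1 (3.39). Il1r1 (2.26) likewise came just above Il1rl2 (2.23).

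The decoy receptor Il1r2, the shared accessory chain Il1rap and the antagonist Il1rn had no region near them in the IL-2 library. Il1r2, on chromosome 1 from 40084692 to 40125230 in RefSeq, lay between consecutive region numbers, 128 kb after the region at 39956736 and 165.4 kb before that at 40290640. Il1rap, on chromosome 16 from 26581509 to 26730128, had its nearest regions 1744.8 kb before and 618.3 kb after it, again with consecutive numbers. Il1rn, on chromosome 2 from 24336860 to 24351491, had them 1268.7 kb before and 583.5 kb after it, also consecutive. Thus these genes were absent because no region was called nearby, and not because a region there was left without a gene. Heights at these genes were not part of the table, so signal below the calling threshold was not analysed here.

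The Il1r2 promoter is shown because it held the STAT5 motif although no region was called there. Its RefSeq promoter window belongs to a start at 40086093, which is inside the gene span given above and not at its first base. The 250 bases before that start are the plus strand of chr1:40085843-40086092 (RefSeq, GRCm38.p6), 5′ to 3′, with TTCNNNGAA in capitals.
Il1r2: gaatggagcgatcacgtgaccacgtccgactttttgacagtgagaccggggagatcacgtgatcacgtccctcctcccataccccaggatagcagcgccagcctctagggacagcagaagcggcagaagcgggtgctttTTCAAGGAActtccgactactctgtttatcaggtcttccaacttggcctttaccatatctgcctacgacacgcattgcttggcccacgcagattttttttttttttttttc

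The match TTCAAGGAA lay at 40085982 to 40085990. RefSeq gave 14 promoter windows for the 8 genes, and TTCNNNGAA was in 2 of them, the Il1r2 window and that of the Il18r1 start at 40466006. Only the Il18rap window contained a region position, and it lacked TTCNNNGAA.

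The other listed genes of the pathway passed the ratio rule about as often as listed genes in general. Of 37 genes chosen for ligands, other receptors, signalling and ligand maturation, 12 were in the table. This count too has no share over all annotated genes beside it. The ratio was at least 2 for 10 of the 12, beside 83.8% of all listed genes, and their median log2 ratio was 1.49, beside 1.42. None of the remaining 25 contained a listed region, and for 20 of them the regions on either side had consecutive numbers.

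Among the ligands and their soluble inhibitors, 1 of 10 was listed. That was Il18bp, which encodes the secreted inhibitor of IL-18, with 43 in the IL-2 library and 6 in the control library (log2 ratio 2.13) at a region 587 bases into the gene that was also assigned to Numa1 and Rnf121. Il1a, Il1b, Il18, Il33, Il1f10 and the IL-36 genes were not in the table. Around Il1a and Il1b, 3 region numbers carried by no listed gene lay between the listed regions at 129185920 and 131903104 on chromosome 2, and around the others there were none. Of the other receptors Sigirr, an inhibitory member of the family, had 19 in the IL-2 library and 4 in the control library (log2 ratio 1.42), at a region shared with Ano9 and Pkp3. Il1rapl1 and Il1rapl2, which act in neurons, were not listed.

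The table held 8 of 19 signalling genes, and all 8 reached a ratio of 2. Tab2, an adaptor of the kinase TAK1, had the highest, 46.5 in the IL-2 library and 3.5 in the control library over 2 regions (log2 ratio 2.60). Traf6, the ubiquitin ligase downstream of MYD88, had 31 in the IL-2 library and 5 in the control library over 3 regions within the gene (log2 ratio 1.85). Irak2 had 21 in the IL-2 library and 6.75 in the control library over 4 regions (log2 ratio 1.15). The adaptor gene Myd88 itself had 13 in the IL-2 library and 3 in the control library (log2 ratio 1.17), at a region shared with Acaa1a. Tab1 (24 in the IL-2 library and 3 in the control library) and Peli1, a ubiquitin ligase of the pathway (24 and 5 in the same order), were close to the table's median. Tab3 and Chuk, a kinase subunit upstream of NF-kappaB, were below it, at 16 and 14 in the IL-2 library and 2 each in the control library. Of the genes for ligand maturation, Casp1, the protease that cleaves the IL-1 beta and IL-18 precursors, shared with Casp4 a region 68 bases into Casp4, with 11 in the IL-2 library and 4 in the control library (log2 ratio 0.83).

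**Figure D4:**
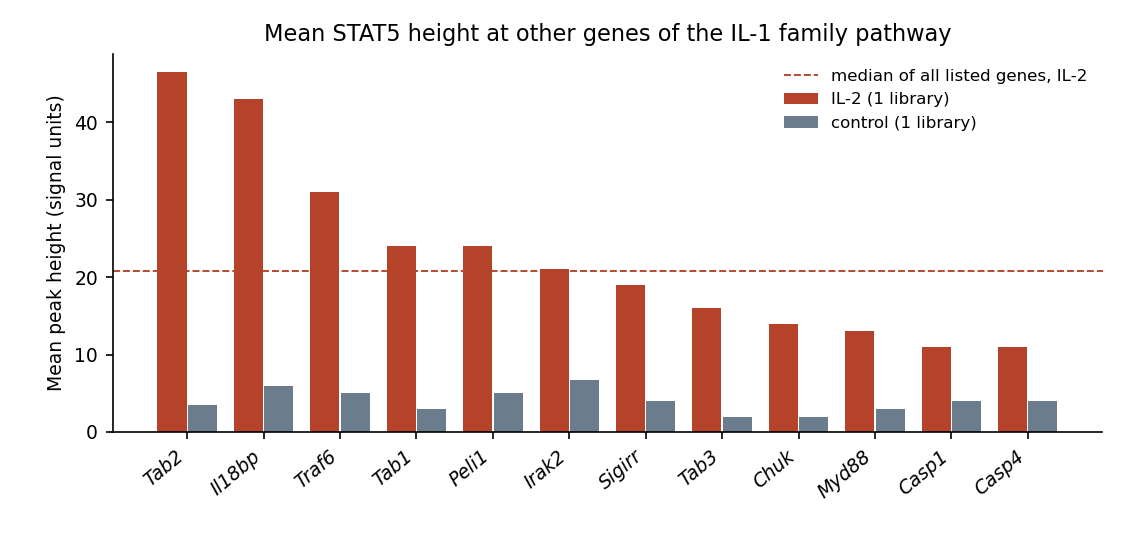
Mean STAT5 peak height (signal units) of the 12 listed genes of the IL-1 family pathway in the IL-2 library (red) and the control library (grey), 1 library each, with the IL-2 median of all listed genes as a dashed line. The IL-2 bars run from 46.5 for Tab2 to 11 for Casp1 and Casp4, and the control bars from 2 to 6.75.

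The listed genes with a pair of heights most like that of Il18rap were Il23a and Pan2, which share a region, Wdr37, Arid5a and Ehmt2. Likeness was the distance between log2 heights (with 5 added) over the 2 libraries, and it was 0.0515 for Il23a, Pan2 and Wdr37, 0.0587 for Arid5a and 0.0641 for Ehmt2. The heights of Il23a, Pan2 and Wdr37 were 109 in the IL-2 library and 5 in the control library. Ehmt2 had 110 in the IL-2 library and 5 in the control library, and Arid5a, over 3 regions, 102.33 in the IL-2 library and 5.33 in the control library. With 2 values per gene this likeness describes heights only.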

How the data were processed

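STAT5 was measured by ChIP-seq in 1 library of IL-2-treated and 1 library of untreated effector CD8 T cells. The authors deposited gene-level peak heights, a signal without read numbers, so depth and counting error are unknown. BWA and mm10 are named in the submitters' processing notes. Not given in the sources used here are the peak caller, the read extension and any scaling of the libraries. Per the file headers, each gene has a mean height per library, a highest peak, region names showing the library in which each region was called, other descriptors (presence flags and region numbers per gene), and distances to the gene start.

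Region positions were computed from gene start, strand and distance with Python 3.11.15, pandas 2.3.3 and numpy 2.4.6, and shared regions were matched by name. Single heights were solved from gene sums where these fix them, a step tested on simulated data. Log2 ratios used a pseudocount of 5, which understates the change of low heights, and ratios of at least 2 were counted. With 1 library per group no test was run. Promoter windows, gene spans and names came from RefSeq GRCm38.p6, which held all 8 genes. Motifs were searched in those windows (300 bases) in place of the planned windows around regions, since no genome was used here. Named were the 8 genes, the pathway genes in the table, the flanking listed genes and the 5 genes most like the top member. Members, lists and rules were chosen with earlier results of these data known, and the TTCNNNTAA search, the region-number runs and the assignment distances were examined after seeing the data. Alternatives were size rules of 1.5 and 4, pseudocounts of 1 and 10, equal medians, the highest peak, genes of higher signal, merging within 200 bp, 5 kb for 1 kb, and other motif windows.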

Additional observations from a re-analysis of the deposited data

How the results depend on the processing

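No paired analysis was possible because there was only 1 library per group. Of the 5 receptor genes with a ratio of at least 2, 1 was left after scaling to equal medians and 3 with a size rule of 4, whereas a size rule of 1.5, pseudocounts of 1 and 10, use of the highest peak and restriction to higher-signal genes gave 5. Their median log2 ratio, 2.34, was 0.89 with equal medians, 3.39 with the highest peak, 2.95 at a pseudocount of 1 and 1.9 at 10. The count of pathway genes, 10, became 1 with equal medians, 2 with a size rule of 4 and 6 among genes of higher signal. Of the 3 regions with a determined height, 1 passed with equal medians and 1 with a size rule of 4. A stricter rule and fewer genes lower counts by construction, and equal medians remove any overall difference between libraries. Only 1 of the 9 receptor regions lay in a promoter window, that at Il18rap, so the motif counts rest on this region alone. The number of receptor regions in a window with the motif was 0 for TTCNNNGAA, also in 200 bases. It was 1 for the wide-spaced motif and 1 for TTCNNNTAA. The other regions were not part of this count. None of the 29 alternative log2 ratios of single genes and regions changed sign. Only those with equal medians could have done so, since another pseudocount or the highest peak cannot reverse these ratios. Merging regions within 200 bp left 9, and 4 lay within 5 kb of a member start. Depth is unknown, and heights of unresolved regions are known only as sums.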
